A study of Mus musculus with 9 samples.

Results

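The 8 CXC chemokine genes Cxcl1, Cxcl2, Cxcl3, Cxcl5, Cxcl9, Cxcl10, Cxcl11 and Cxcl16 were examined in ATAC-seq peak lists, which mark stretches of DNA open to a transposase. Peaks lying in the RefSeq span of a member or within 10 kb of it were taken, and peaks of the 4 lists that overlapped by at least 1 bp were merged into regions counted once for neighbouring genes. This gave 66 of the 194768 regions of the series: 34 at the neutrophil-attracting genes Cxcl1, Cxcl2, Cxcl3 and Cxcl5, 23 at the interferon-induced genes Cxcl9, Cxcl10 and Cxcl11, and 9 at Cxcl16. In mm10 coordinates, which are used throughout, the cluster on chromosome 5 holds Cxcl5 (chr5:90759298-90761625), Cxcl3 (chr5:90786101-90788093), Cxcl1 (chr5:90891245-90893121) and Cxcl2 (chr5:90903899-90905938), and further along Cxcl9 (chr5:92321331-92328079), Cxcl10 (chr5:92346638-92348889) and Cxcl11 (chr5:92359544-92363296). Cxcl16 lies on chromosome 11 (chr11:70454389-70459984). The members contributed 42 peaks to the OE list, 61 to mi8, 62 to HP109 and 62 to LMP8.

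The cells were dendritic cells grown for 9 days from C57Bl/6 mouse bone marrow in GM-CSF at 20 ng/mL, transduced with retrovirus on day 2, and sorted on CD11c together with human CD8, the reporter encoded by each vector. OE cells carried a vector that overexpresses Pcgf6, and mi8 was its control vector. HP109 cells carried a hairpin RNA against Pcgf6, and LMP8 was its control vector. All 4 groups therefore shared retroviral transduction, the reporter and the sort, whereas overexpression and knockdown each had their own control vector. Knockdown rested on a single hairpin, and the age, sex and number of mice are not given in the labels. Each vector had 2 libraries but only 1 deposited peak list, so no value below has a replicate spread, no test between vectors was run, and differences compare these lists rather than the conditions. ATAC-seq does not measure Pcgf6 RNA or protein, so overexpression and knockdown are taken from the labels.

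CXC chemokines are small secreted proteins that guide white blood cells along a gradient through G-protein-coupled receptors. Cxcl1, Cxcl2, Cxcl3 and Cxcl5 act through Cxcr2 and draw neutrophils; their genes sit in a cluster and are switched on through NF-kB when a macrophage or dendritic cell senses microbes. Cxcl9, Cxcl10 and Cxcl11 act through Cxcr3 and draw activated T cells and NK cells; they are classical interferon-induced genes. Cxcl16 differs from both: it is made as a membrane-bound protein, binds Cxcr6 and also takes up oxidised lipoprotein. Pcgf6 is a subunit of the non-canonical Polycomb complex PRC1.6, which is brought to DNA by partners that recognise E-box and E2F sequences.

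The 250 bases upstream of the annotated start are shown for the 5 members that matched in the RefSeq promoter table of build GRCm38.p6 (Cxcl1, Cxcl2, Cxcl3, Cxcl9 and Cxcl10), because peaks there can be set beside the letters they cover. They read 5′ to 3′ on the strand of the gene and end at the base before the start. Capitals mark matches to the NF-kB consensus and to an interferon response motif (GAAA, any 2 bases, GAAA), searched on both strands.
Cxcl1, chr5:90890995-90891244, plus strand: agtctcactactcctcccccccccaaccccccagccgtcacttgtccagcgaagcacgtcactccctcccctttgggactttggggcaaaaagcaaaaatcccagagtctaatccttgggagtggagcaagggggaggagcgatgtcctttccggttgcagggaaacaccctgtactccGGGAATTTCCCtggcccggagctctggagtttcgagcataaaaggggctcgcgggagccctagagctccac
Cxcl2, chr5:90903649-90903898, plus strand: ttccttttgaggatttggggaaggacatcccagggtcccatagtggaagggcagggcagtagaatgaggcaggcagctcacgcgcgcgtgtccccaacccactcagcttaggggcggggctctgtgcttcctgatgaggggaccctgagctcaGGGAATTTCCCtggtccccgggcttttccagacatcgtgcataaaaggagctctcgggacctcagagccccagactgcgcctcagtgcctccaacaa
Cxcl3, chr5:90785851-90786100, plus strand: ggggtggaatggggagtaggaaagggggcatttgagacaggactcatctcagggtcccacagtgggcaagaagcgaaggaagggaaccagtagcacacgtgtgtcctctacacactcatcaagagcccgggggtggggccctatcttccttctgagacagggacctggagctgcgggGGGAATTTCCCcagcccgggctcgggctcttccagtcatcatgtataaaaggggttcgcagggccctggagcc
Cxcl9, chr5:92328080-92328329, minus strand: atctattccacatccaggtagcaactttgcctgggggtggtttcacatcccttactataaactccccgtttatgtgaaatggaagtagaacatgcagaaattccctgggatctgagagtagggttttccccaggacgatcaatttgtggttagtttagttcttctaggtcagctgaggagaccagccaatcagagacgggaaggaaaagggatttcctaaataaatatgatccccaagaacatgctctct
Cxcl10, chr5:92348890-92349139, minus strand: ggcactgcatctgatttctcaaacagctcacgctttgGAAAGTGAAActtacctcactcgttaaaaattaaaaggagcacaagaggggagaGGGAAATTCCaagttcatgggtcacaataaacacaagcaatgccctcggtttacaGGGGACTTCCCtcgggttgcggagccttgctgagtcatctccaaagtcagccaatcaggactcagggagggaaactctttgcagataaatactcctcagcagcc

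The 3 neutrophil-attracting promoters held the same NF-kB stretch in capitals, which matches on both strands as a pair of overlapping sites. Counted back from the start, it spanned bases -71 to -61 in Cxcl1, -97 to -87 in Cxcl2 and -73 to -63 in Cxcl3. In each of these promoters the letters ATAAAA followed it on the sense strand, at -34 to -29 in Cxcl1, -57 to -52 in Cxcl2 and -29 to -24 in Cxcl3; these letters were added to the search after the sequences had been read. Cxcl10 held NF-kB matches at -159 to -150 and, as 2 overlapping sites, at -104 to -94, an interferon response match at -213 to -204 and the AP-1 letters TGANTCA at -74 to -68. The Cxcl9 window held no match to any of the other 7 motifs searched, which says only that these letters are not in this window.

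Across 32851 mouse promoters of the same length, 7.25% held the NF-kB consensus, 2.98% the interferon response motif, 6.75% the AP-1 letters and 10.2% ATAAAA on the sense strand. The E-box letters CACGTG occurred in 6.02% of promoters and, among the members, in Cxcl3 alone, at -155 to -150. The E2F letters GCGGGAAA, in 0.895% of promoters, occurred in none of the 5 windows, nor did the C/EBP letters TTGCNNAA (9.56%) or the PU.1-like ETS letters GAGGAAG (10.6%). GC content was 59.2% for Cxcl1, 60.0% for Cxcl2, 60.0% for Cxcl3, 44.4% for Cxcl9 and 48.0% for Cxcl10. All 250 bases lay inside a peak in each of the 4 lists for Cxcl1, Cxcl2, Cxcl3 and Cxcl10. The Cxcl9 window was the exception, with 0 bases in a peak of OE or mi8, 69 in HP109 and 68 in LMP8.

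Peaks were compared in 2 ways. Presence or absence in a list depends on the caller's threshold, and the −log10 q of a peak, the authors' own value, describes its strength within that list. The read pileup at the summit was recovered as a whole number from the deposited fold and −log10 p, and was divided by the genome-wide background of its list, which was 2.002 reads in OE, 1.947 in mi8, 1.355 in HP109 and 1.423 in LMP8. This background, the measure of depth used since the lists give no read totals, had a ratio of 1.028 for OE over mi8, 0.9523 for HP109 over LMP8 and 0.7305 for LMP8 over mi8. Ratios below are ratios of this scaled summit pileup; their 95% intervals are exact, cover counting error only and treat reads as independent. The lists differed in length genome-wide, with 111510 peaks in OE, 170976 in mi8, 170103 in HP109 and 140735 in LMP8, so shares and ratios of the members are read against the same values over all regions.

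With OE, open regions at the CXC chemokine genes were fewer than with mi8, and most of those that remained had lower summits. Of 59 member regions present in OE or mi8, mi8 alone held 22, a share of 37.3% (95% exact binomial interval 25.04% to 50.9%), and OE alone held 0. Over all regions, OE alone held 2.87% and mi8 alone 39.0%, so the share of member regions missing from OE was near the background. The gap was 10 of 30 regions (33.3%) at the neutrophil-attracting genes, 11 of 21 (52.4%) at the interferon-induced genes and 1 of 8 at Cxcl16. The intervals of the neutrophil-attracting and interferon-induced shares, 17.3% to 52.8% and 29.8% to 74.3%, overlapped. All intervals of shares treat regions as independent, although neighbours share a locus. Their overlap is thus no test between the classes. With each list cut to its strongest 111510 peaks, mi8 alone held 15.9% of member regions, beside 16.9% of all regions, with 4.76% at the neutrophil-attracting and 37.5% at the interferon-induced genes.

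Among the 37 member regions present in both lists, 35 had a lower scaled summit in OE than in mi8, with a median ratio of 0.59. All 99418 regions shared by OE and mi8 had a median ratio of 0.77 with quartiles of 0.61 and 0.94, and 82.1% of them were lower in OE. The median was 0.55 over 20 neutrophil-attracting regions, 0.66 over 10 interferon-induced regions and 0.71 over 7 Cxcl16 regions. Of the 37 ratios, 27 lay below the genome-wide median and 5 below its 5th percentile, and 19 had a counting interval wholly below 1 and 0 wholly above. Over all shared regions, 22.7% of such intervals lay below 1 and 0.568% above. The interval narrows with the pileups of both lists. Median pileups at the 37 member regions were 26 reads in OE and 45 in mi8. At all shared regions they were 27 in OE and 38 in mi8. By class, the interval lay below 1 at 12 of 20 neutrophil-attracting, 5 of 10 interferon-induced and 2 of 7 Cxcl16 regions. Regions of the same gene share a locus and are not replicates of each other.

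**Figure D1:**
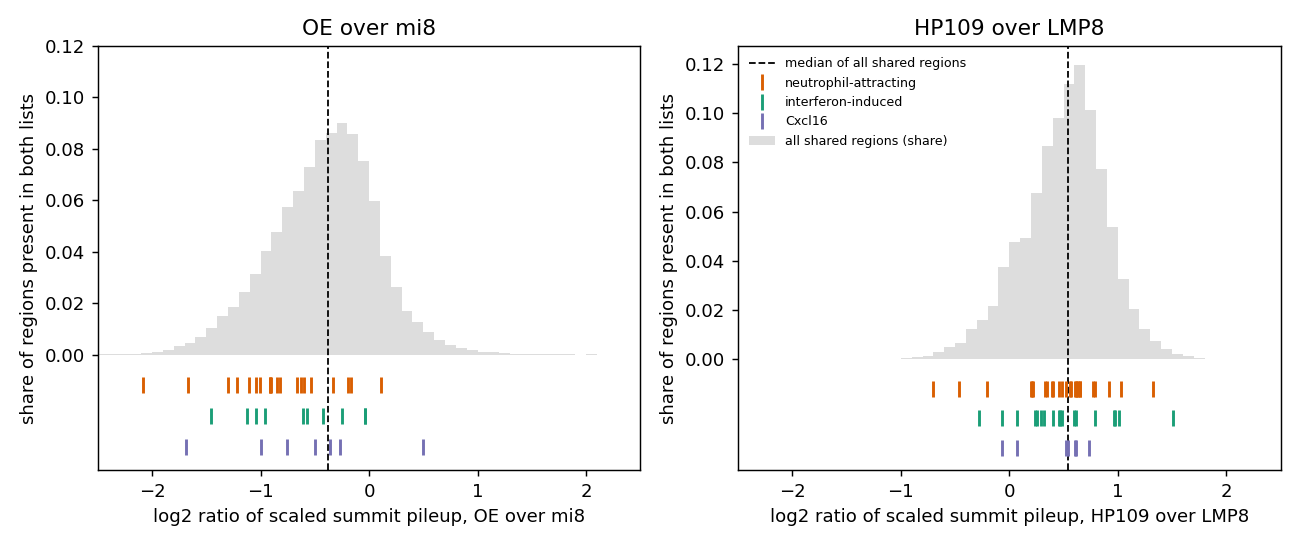
Log2 ratio of scaled summit pileup on the x axis, OE over mi8 at left and HP109 over LMP8 at right; grey bars give the share of all regions present in both lists, the dashed line their median, and coloured ticks the member regions by class. Member ticks lie mostly left of the dashed line for OE over mi8 (27 of 37) and about evenly around it for HP109 over LMP8 (27 of 51 below).

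With the knockdown, the member regions were nearly the same set as in the LMP8 control, with mostly higher summits. Of 57 regions in HP109 or LMP8, 3 were in HP109 alone and 3 in LMP8 alone (5.26% each, interval 1.10% to 14.6%). Over all regions the shares were 22.8% in HP109 alone and 5.99% in LMP8 alone, so regions found with the hairpin alone were a smaller share among the members than genome-wide. With peaks of −log10 q of at least 10 only, HP109 alone held 22.7% of member regions, beside 27.6% of all regions, and with the strongest 111510 peaks of each list 7.84%, beside 12.2%. The median ratio of HP109 over LMP8 was 1.43 over the 51 shared member regions, 45 of which were above 1, and 1.45 over all 122194 shared regions, 89.5% of which were higher in HP109. Set against that genome-wide median, the member median was 0.985, close to 1. Medians were 1.45 at 26 neutrophil-attracting, 1.38 at 18 interferon-induced and 1.46 at 7 Cxcl16 regions. A counting interval lay wholly above 1 at 13 of the 51 regions and wholly below 1 at 0, beside 27.0% and 0.0139% of all shared regions.

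The LMP8 and mi8 lists, both without a Pcgf6 vector, differed as well. Of 64 member regions in either, 5 (7.81%) were in LMP8 alone and 10 (15.6%) in mi8 alone, beside 4.58% and 23.9% over all regions. The median ratio of LMP8 over mi8 was 0.84 at 49 shared member regions and 0.89 over all shared regions. It was 0.90 at the neutrophil-attracting genes and 0.74 at the interferon-induced genes, where 16 of 17 regions were lower in LMP8, beside 71.2% of all shared regions. LMP8 also had the lower background of the pair, whose part in this spread was not tested.

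The number of peaks per gene was lower in OE than in mi8 at 7 of the 8 members. Genome-wide, 78.6% of genes with a peak in either list had fewer peaks in OE than in mi8, and 61.7% had more in HP109 than in LMP8; HP109 had more at 2 of the 8 members, Cxcl3 and Cxcl9. Cxcl9 had 2 peaks in OE, 7 in mi8, 10 in HP109 and 9 in LMP8. Cxcl5 had 4 in OE, 8 in mi8, 7 in HP109 and 7 in LMP8. Cxcl11 had 6 in OE, 11 in mi8, 8 in HP109 and 8 in LMP8.

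Cxcl9 thus had the smallest count of any member in OE and not in the other lists. Among 8798 genes with 7 or more mi8 peaks, 192 (2.18%) kept as small a share of them in OE as Cxcl9 or a smaller one. The cut at 7 is the mi8 count of Cxcl9 itself, and Cxcl9 was singled out by its low OE count. This share therefore describes the gene and tests nothing, and the genes compared include some with many more mi8 peaks. Cxcl10 had 6 peaks in OE, 9 in mi8, 6 in HP109 and 6 in LMP8, so its knockdown and control counts equalled its OE count. Cxcl1 had 9 in OE, 13 in mi8, 10 in HP109 and 12 in LMP8, and Cxcl3 had 5, 6, 9 and 8 in the same order. Cxcl16 had 7, 8, 8 and 9.

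Cxcl2 was the exception, with 13 peaks in OE, 12 in mi8, 14 in HP109 and 14 in LMP8. The stretch that runs right of the gene in the map of the loci held 4 narrow peaks in OE and 2 in mi8, of which 1 was broad; counted as regions, OE alone held 0 at Cxcl2.

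**Figure D2:**
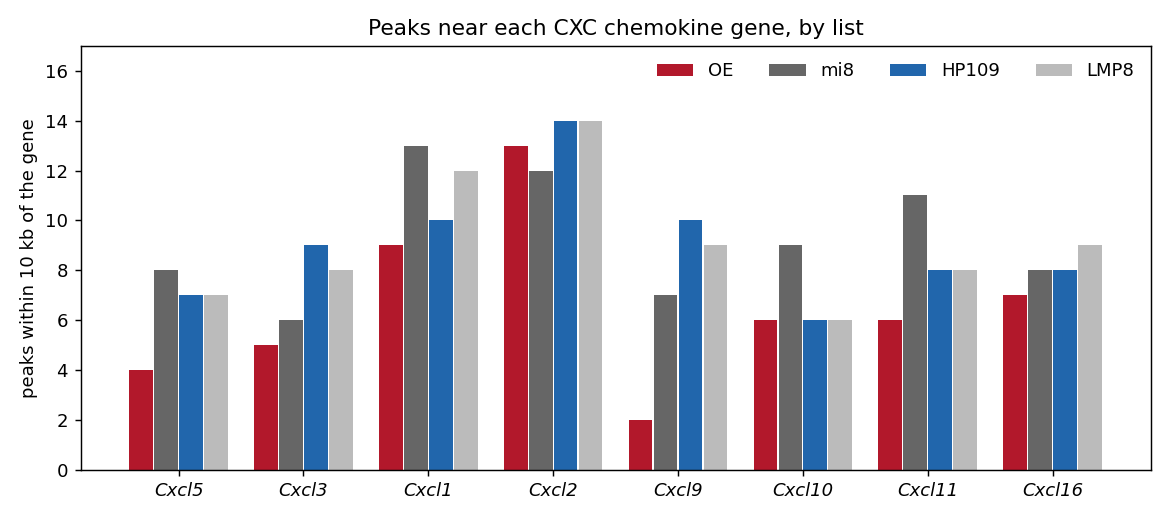
Number of peaks within 10 kb of each CXC chemokine gene in the OE, mi8, HP109 and LMP8 lists (bars, from 0); neighbouring genes share some peaks. OE has fewer peaks than mi8 at every gene except Cxcl2, and Cxcl9 shows 2 in OE against 7 in mi8.

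**Figure D3:**
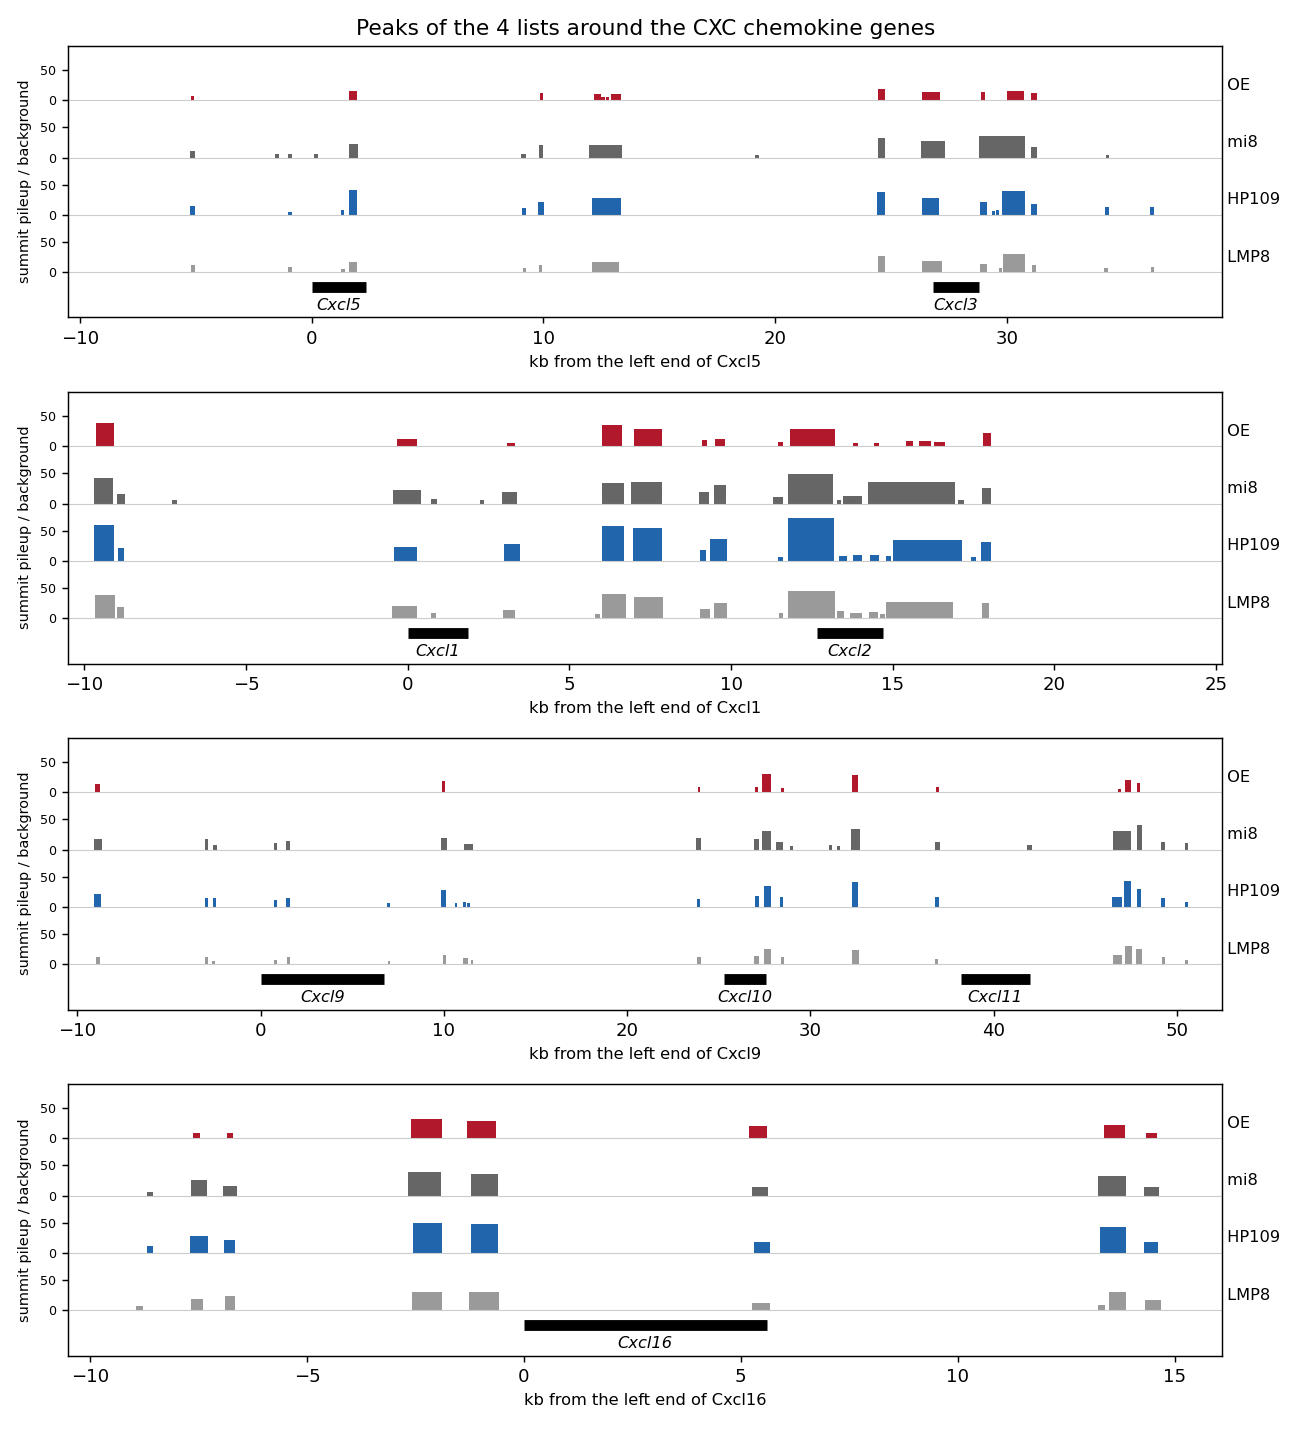
Peaks around the 8 genes, in kb from the left end of the named gene on the x axis; each bar is a peak, its height the summit pileup divided by the genome-wide background of the list, and black bars are gene spans. The OE track lacks the bars over Cxcl9 and has narrow, low bars where mi8 has a broad peak right of Cxcl2.

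At the starts of Cxcl1, Cxcl2 and Cxcl3 a peak was called in all 4 lists and was lower in OE than in mi8. The Cxcl2 start (chr5:90902993-90904467), the site with the highest q among all member regions, had a −log10 q of 43.6 in OE, 112.1 in mi8, 108.8 in HP109 and 72.8 in LMP8. Its raw summit pileups were 56 reads in OE, 96 in mi8, 96 in HP109 and 65 in LMP8. OE stood below the other 3 lists, and the ratio was 0.57 for OE over mi8 (95% interval 0.40 to 0.80) and 1.55 for HP109 over LMP8 (1.12 to 2.16). Those ratios lay at percentiles 19.6 and 60.9 of all shared regions.

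The Cxcl3 start (chr5:90785610-90786642) had pileups of 27 reads in OE, 54 in mi8, 39 in HP109 and 27 in LMP8. OE over mi8 was 0.49 (0.29 to 0.79), at percentile 11.2, whereas HP109 over LMP8 was 1.52 (0.91 to 2.58), an interval that includes 1. The Cxcl1 start (chr5:90890762-90891669) had 24 reads in OE, 44 in mi8, 32 in HP109 and 29 in LMP8. OE over mi8 was 0.53 (0.31 to 0.89) there, and HP109 over LMP8 was 1.16 (0.68 to 1.99), at percentile 21.1 of all shared regions. The 3 promoters that carry the shared NF-kB stretch therefore had OE over mi8 ratios between 0.49 and 0.57. The Cxcl10 promoter also holds NF-kB matches, and its start had a ratio of 0.97. A link between the motif and the ratio was not tested.

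The region with the lowest OE over mi8 ratio of all members was the one that begins in Cxcl2 and runs downstream of it (chr5:90905471-90908439). Its pileups were 17 reads in OE, 70 in mi8, 46 in HP109 and 38 in LMP8, so OE stood apart from the other 3 lists. The ratio was 0.24 (0.13 to 0.41), lower than in all but 0.065% of shared regions, and HP109 over LMP8 was 1.27 (0.81 to 2.01). The region held 4 peaks in OE, 2 in mi8, 3 in HP109 and 3 in LMP8. The highest of each list was taken, so the summits compared need not lie at the same place. A region between Cxcl1 and Cxcl2 (chr5:90894176-90894709) had 12 reads in OE, 37 in mi8, 37 in HP109 and 19 in LMP8. Its OE over mi8 ratio was 0.32 (0.15 to 0.62), at percentile 0.863, and its HP109 over LMP8 ratio of 2.05 (1.15 to 3.77) lay at percentile 93.2, so it was low in OE and high in HP109. The region just downstream of Cxcl3 (chr5:90788100-90790099) had 31 reads in OE, 70 in mi8, 53 in HP109 and 42 in LMP8, with an OE over mi8 ratio of 0.43 (0.27 to 0.67). It too held several peaks in OE, HP109 and LMP8, of which the highest was taken.

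Not every region between Cxcl1 and Cxcl2 was lower in OE than in mi8. The one at chr5:90897239-90897994 had 72 reads in OE, 65 in mi8, 79 in HP109 and 56 in LMP8; it was the only neutrophil-attracting region with an OE over mi8 ratio above 1, at 1.08 (0.76 to 1.53). Its neighbour at chr5:90898164-90899153 had a ratio of 0.79 (0.55 to 1.14), whereas one nearer to Cxcl2 (chr5:90900592-90901136) had 25 reads in OE, 60 in mi8, 49 in HP109 and 35 in LMP8 and a ratio of 0.41 (0.24 to 0.66). A region 9060 bp left of Cxcl1 had 76 reads in OE, 83 in mi8, 80 in HP109 and 55 in LMP8, a ratio of 0.89. Hence the regions within the locus did not scale together: ratios at the 10 shared Cxcl2 regions ran between 0.24 and 1.08.

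Of the 10 neutrophil-attracting regions in mi8 and not in OE, 4 were near Cxcl1, 2 near Cxcl3 and 4 near Cxcl5. The strongest lay 8748 bp left of Cxcl1 (chr5:90882238-90882497), with a −log10 q of 23.3 in mi8, 26.2 in HP109 and 23.2 in LMP8 and no peak in OE, although the adjoining region was called in all 4 lists. The other 9 had a mi8 −log10 q between 2.64 and 6.04. Cxcl5, which is also made by epithelial cells, had its strongest peak within the span at its right part (chr5:90760903-90761279), with 32 reads in OE, 45 in mi8, 55 in HP109 and 23 in LMP8. There OE over mi8 was 0.69 (0.43 to 1.11), an interval that includes 1, and HP109 over LMP8 was 2.51 (1.52 to 4.28), at percentile 98.6. Divided by the background, the summit was 15.98 in OE, 23.1 in mi8, 40.6 in HP109 and 16.17 in LMP8, so HP109 was the highest list and OE and LMP8 were near each other. The window of Cxcl5 also holds Ppbp and Pf4, chemokine genes of platelets; their peaks had OE over mi8 ratios of 0.53 and 0.53 and HP109 over LMP8 ratios of 1.73 and 1.71.

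Among the interferon-induced genes, the start of Cxcl10 (chr5:92348698-92349198) had equal raw summits in OE and mi8. It had 61 reads in OE, 61 in mi8, 48 in HP109 and 36 in LMP8. The OE over mi8 ratio was 0.97 (0.67 to 1.41), at percentile 80.8, and that of HP109 over LMP8 was 1.40 (0.89 to 2.22). A region 4652 bp upstream (chr5:92353541-92354052) had 57 reads in OE, 66 in mi8, 56 in HP109 and 34 in LMP8, with ratios of 0.84 (0.58 to 1.22) and 1.73 (1.11 to 2.73). Cxcl10 codes for the chemokine IP-10, an early product of cells exposed to interferon, and its span lies inside that of Art3, as does Cxcl11, so these peaks cannot be assigned to a single gene by position. The peak inside Cxcl10 (chr5:92348256-92348529) had 18 reads in OE, 34 in mi8, 24 in HP109 and 19 in LMP8, and an OE over mi8 ratio of 0.51 (0.27 to 0.94). The start and the body of the same gene therefore differed in this ratio, though their intervals overlap. The 3 regions near Cxcl10 that were absent from OE had a −log10 q of 4.12 to 5.24 in mi8 and were absent from HP109 and LMP8 too.

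Cxcl9, the gene for a chemokine induced above all by interferon gamma, had 0 peaks inside its span in OE, 2 in mi8, 2 in HP109 and 2 in LMP8. The peak at chr5:92322692-92322934 had 27 reads in mi8, 21 in HP109 and 18 in LMP8, and the one at chr5:92322045-92322247 had 20, 16 and 11 in the same lists. Below the gene, the peak at chr5:92318273-92318475 had 34 reads in mi8, 21 in HP109 and 16 in LMP8 and was again missing from OE. Its −log10 q of 26.8 in mi8 was the highest of any member region absent from OE; 9.73% of all mi8 regions with a q value from 20 to 40 on this scale were absent. A neighbour at chr5:92318668-92318936 was absent from OE and had 15 reads in mi8, 19 in HP109 and 7 in LMP8, an HP109 over LMP8 ratio of 2.85 (1.15 to 8.02) at percentile 99.5.

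A peak 3087 bp upstream of the Cxcl9 start (chr5:92331166-92331512) was kept in OE, with 39 reads in OE, 39 in mi8, 39 in HP109 and 21 in LMP8. Its OE over mi8 ratio was 0.97 (0.61 to 1.56) and its HP109 over LMP8 ratio 1.95 (1.12 to 3.49). At the Cxcl9 start itself only a weak peak was called, with 9 reads in HP109 and 8 in LMP8, near the smallest pileups a peak at the genome-wide background could have in those lists (6 reads in each); OE and mi8 had no peak there, where that smallest pileup was 8 and 7 reads. Absence at this site is thus not a measured difference at this depth.

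Cxcl11 is listed in RefSeq as a transcribed pseudogene in this mouse strain. The single peak touching its span (chr5:92363168-92363411) was in mi8 alone, with 15 reads. The strongest difference near it was 5818 bp from the span (chr5:92369114-92369423), with 30 reads in OE, 80 in mi8, 41 in HP109 and 36 in LMP8. OE over mi8 was 0.36 (0.23 to 0.56), at percentile 2.26, but LMP8 was also below mi8 there, at 0.62 (0.40 to 0.92), and HP109 over LMP8 was 1.20 (0.75 to 1.93). mi8 was thus the high list of the 4 at this site.

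Cxcl16 kept 7 of its 8 mi8 regions in OE. The region at the right end of its span (chr11:70459569-70460062), which also overlaps Zmynd15, was the only member region above the 95th percentile for OE over mi8. It had 42 reads in OE, 29 in mi8, 25 in HP109 and 18 in LMP8, so OE was the highest list, though the ratio of 1.41 had a counting interval of 0.86 to 2.35. The region 7289 bp from the left end (chr11:70446699-70447100) went the other way, with 16 reads in OE, 50 in mi8, 39 in HP109 and 27 in LMP8 and a ratio of 0.31 (0.17 to 0.56). The highest summit near Cxcl16 lay in Med11 (chr11:70451727-70452493), with a ratio of 0.83 (0.59 to 1.17).

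**Figure D4:**
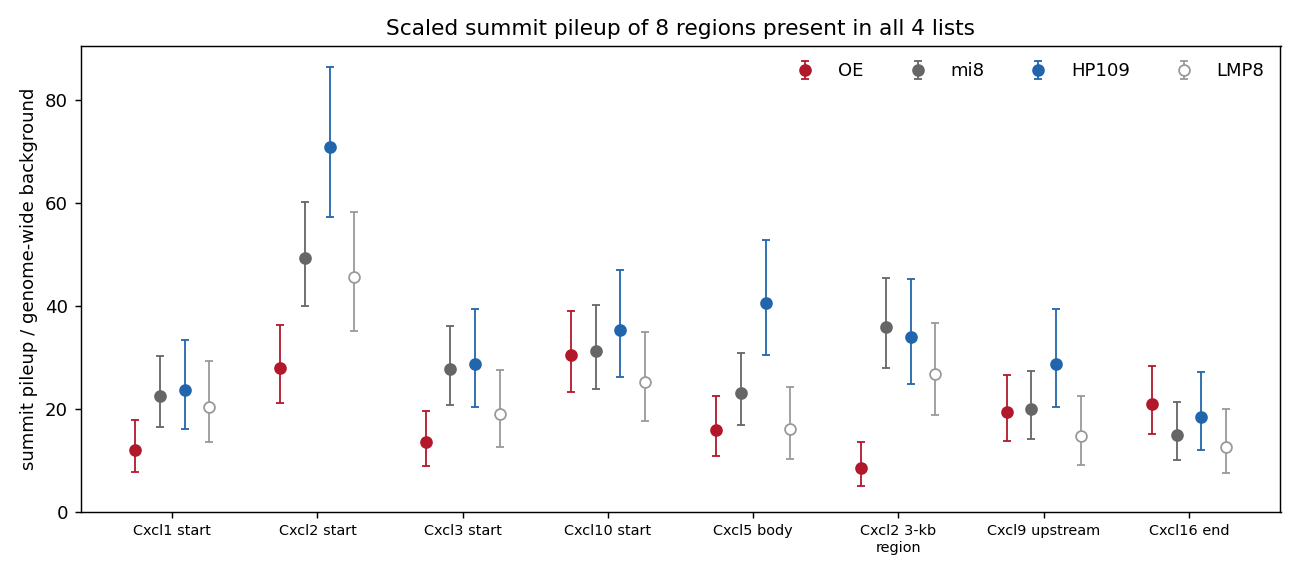
Summit pileup divided by the genome-wide background of its list (y axis, from 0) for 8 regions present in OE, mi8, HP109 and LMP8; bars are 95% exact Poisson intervals and cover counting error only. OE lies below mi8 at the Cxcl1, Cxcl2 and Cxcl3 starts and in the region running downstream of Cxcl2, level with it at the Cxcl10 start and upstream of Cxcl9, and above it at the Cxcl16 end.

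The mi8 regions absent from OE were the weaker ones, among the members as in the whole list. By −log10 q in mi8, 11 of 11 member regions under 5 were absent from OE, 5 of 5 between 5 and 10, 4 of 11 between 10 and 20, 2 of 13 between 20 and 40, and 0 of 19 from 40 upwards. The shares over all mi8 regions in the same bins were 86.6%, 71.5%, 39.3%, 9.73% and 0.389%. HP109 regions absent from LMP8 were 2 of 6, 0 of 4, 1 of 14, 0 of 12 and 0 of 18 in those bins of HP109 q, beside 70.3%, 46.7%, 13.7%, 1.11% and 0.00524% of all. Member counts in the weak bins are small, at 6 and 4 regions.

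**Figure D5:**
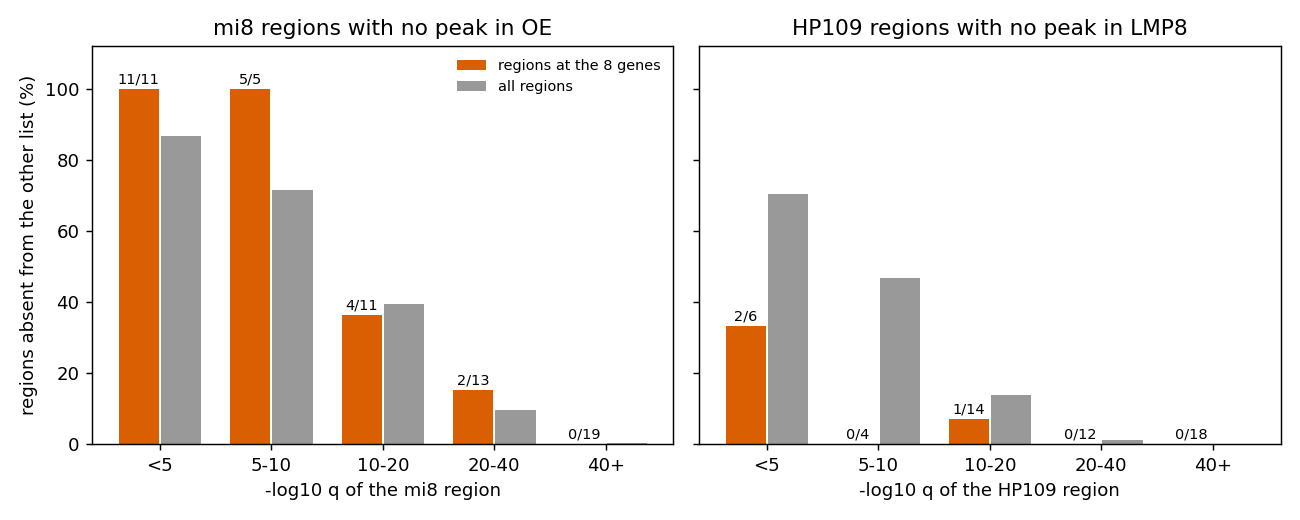
Share of mi8 regions with no peak in OE (left) and of HP109 regions with no peak in LMP8 (right), in percent, by −log10 q of the region; orange bars are the member regions with their counts above, grey bars all regions. The grey bars fall with q in both panels, and 0 of 19 member regions with a mi8 value of 40 or more lacked an OE peak.

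By list, 37 of the 66 member regions were in all 4 lists (56.1%, against 47.1% of all regions). Another 11 (16.7%, against 13.97%) were in mi8, HP109 and LMP8 but not in OE: 4 at neutrophil-attracting and 7 at interferon-induced genes. In mi8 and no other list there were 9 (13.6%, against 9.90%). The rest were 3 in HP109 and LMP8, 2 in HP109 alone, 2 in LMP8 alone, 1 in mi8 and HP109 and 1 in mi8 and LMP8. The neutrophil-attracting regions were present at 58.8% in OE, 88.2% in mi8, 79.4% in HP109 and 82.4% in LMP8, and over 15569 genes the ones nearest to this profile were Crlf2, Slc38a6, Zkscan14, Zfand4 and Bola2. The interferon-induced regions were present at 43.5%, 91.3%, 82.6% and 78.3% in the same order, nearest to Pygb, Apobec1, Rassf2, Fbxw4 and Scml4. Likeness here is the Euclidean distance between the 4 shares, which was 3.12 to 3.22 percentage points for the first set of genes and 2.74 to 3.65 for the second.

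Receptor genes and the other CXC ligand genes also had regions missing from OE, at the receptors in a share near that of all regions. Of 36 regions present in OE or mi8 at 7 receptor genes, 16 lacked an OE peak (44.4%, beside 39.0% of all regions). A mi8 peak was lacking at 0 of them (beside 2.87%). The median OE over mi8 ratio was 0.61, beside 0.77 over all shared regions. That of HP109 over LMP8 was 1.31, beside 1.45. A peak within 1 kb of either gene end was present at 3 receptor genes in OE and at 6 in mi8, 6 in HP109 and 6 in LMP8. Over all 21883 protein-coding genes the shares with such a peak were 58.2% in OE, 64.8% in mi8, 64.3% in HP109 and 62.4% in LMP8. Cxcr2, the receptor for the neutrophil-attracting ligands, had no such peak in OE and a −log10 q of 22.4 in mi8, 23.5 in HP109 and 19.2 in LMP8. Cxcr3, the receptor for the interferon-induced ligands, had 35.0 in OE, 58.7 in mi8, 49.7 in HP109 and 23.4 in LMP8. Cxcr5 also lacked a peak in OE that the other lists had. Cxcr1 lacked one in OE and in HP109, with a −log10 q of 8.30 in mi8 and 4.38 in LMP8. Cxcr4 and Ackr3 had one in all 4 lists, and Cxcr6 had one in HP109 alone. At the ligand genes Cxcl12, Cxcl13, Cxcl14, Cxcl15, Cxcl17, Pf4 and Ppbp, 23 regions were present in OE or mi8. Of these, 13 were in mi8 alone (56.5%, beside 39.0% of all regions). The median OE over mi8 ratio at the ligand regions was 0.63. Some of these regions are also counted at Cxcl5 and Cxcl3.

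At genes that act upstream of the chemokines the share of regions missing from OE lay near the 39.0% of all regions. Here 10 genes were grouped as NF-kB genes (such as Rela, Nfkbia and Tnfaip3, and also the cytokine genes Tnf and Il1b). Of 146 regions present in OE or mi8 at them, 50 lacked an OE peak (34.2%). Of the same regions, 2 lacked a mi8 peak, and the median OE over mi8 ratio was 0.73. At 10 interferon genes (such as Irf1, Irf7 and Ifnb1), 34 of 89 regions present in OE or mi8 lacked an OE peak (38.2%). Of these 89, 1 lacked a mi8 peak, and the median ratio was 0.69. All 10 NF-kB genes had a peak at a gene end in each list. Among the interferon genes Ifnb1, which codes for interferon beta, had none in OE and a −log10 q of 8.41 in mi8, 9.69 in HP109 and 7.65 in LMP8. Of all mi8 regions with a −log10 q from 5 to under 10, 71.5% were absent from OE. HP109 over LMP8 medians were 1.49 for the NF-kB genes and 1.33 for the interferon genes, beside 1.45 over all shared regions.

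Most markers of the labelled cell type had a peak at a gene end in all lists. Of 12 dendritic-cell genes, 11 had a peak at a gene end in OE and 12 in each of mi8, HP109 and LMP8, the exception being Ciita; the 10 macrophage genes all had one in each list. Cultures of marrow in GM-CSF are known to hold CD11c-positive macrophage-like cells, which the sort does not remove. Of 11 neutrophil genes, 4 had such a peak in OE, 7 in mi8, 8 in HP109 and 6 in LMP8, to be read against the shares of all genes given above. Counts for 6 lymphoid genes were 1, 3, 5 and 3, for 6 mast cell and basophil genes 1, 2, 2 and 2, and for 5 stromal and endothelial genes 1, 3, 2 and 1, in the order OE, mi8, HP109 and LMP8. Median OE over mi8 ratios were 0.68 at dendritic, 0.69 at macrophage, 0.68 at neutrophil and 0.67 at lymphoid genes. They were 0.82 at mast cell and basophil genes and 0.72 at stromal and endothelial genes. The median was 0.77 over all shared regions and 0.59 at the chemokine members. Fewer cells of a type and less open DNA per cell cannot be told apart in such bulk libraries, and the part of either in the chemokine values was not tested.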

How the data were processed

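BWA (alignment), Picard and MACS2 (peaks) on mm10, the GRCm38 assembly, were used on the ATAC-seq reads, per the submitters' processing notes. According to the labels, 1 list per vector covers both of its libraries, and the single input library serves all the dendritic cells. The names of the lists give a call against an input marked mi8, after downsampling. For versions, thresholds, read shifting and pooling, the sources used here give nothing. The score the authors deposited equals the −log10 q multiplied by 10 and cut to a whole number. The fold (a ratio) deposited by the authors sets the summit pileup over the local background. The deposited −log10 p column gives the tail probability of that pileup under the background, and −log10 q its value adjusted for multiple testing.

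Autosomal, X and Y peaks were kept, several summits of 1 interval being reduced to the one with the highest q. Pileup and background were solved from fold and −log10 p (Poisson tail, a pseudocount of 1 on both); a whole-number pileup matched within 0.001 for 100% of peaks in each list. Median summit pileups were 25 reads in OE, 24 in mi8, 21 in HP109 and 19 in LMP8, which limits the precision of single summits. A summit is a selected maximum, so its interval is too narrow. Ratios were taken between lists for regions present in both. Where a list had several peaks in a region, the highest pileup was used. The recovery was tested on simulated data. Work used Python 3.11.15, numpy 2.4.6, pandas 2.3.3 and scipy 1.17.1.

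The members, classes, motifs and gene lists were chosen with earlier results of these data known. All 8 members were named by that choice, and values were given for the strongest peaks at gene ends and for regions missing from a list; regions at the extremes of the ratio were singled out after their values were seen. Strand and start were taken from the RefSeq promoter table for 5 members. Alternatives covered q thresholds, window, equal numbers of peaks, overlap and scaling. 1 gene of the interferon list is not reported here.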

Additional observations from a re-analysis of the deposited data

How the results depend on the processing

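No paired analysis was possible because each vector has 1 peak list for both of its libraries and no test was run. Of the alternative values, 178 lay within the interval of the reported share (binomial) or median (order statistics over regions), 25 lay outside it and 4 medians changed side of 1. These intervals are wide at such counts of regions. The interferon-induced share in mi8 alone, against OE, had one of 29.8% to 74.3%. The count of 178 is therefore no measure of stability. With each list cut to its strongest 111510 peaks, the share in mi8 alone, against OE, was 15.9% for all members and 4.76% for neutrophil-attracting genes (all regions 16.9%); against LMP8 these shares were 2.08% and 0% (all regions 12.1%), and LMP8 alone was 0% for interferon-induced genes (all regions 9.86%). Setting the median of all shared regions to 1 gave OE over mi8 ratios of 0.769 for all members and 0.710 for neutrophil-attracting genes, HP109 over LMP8 of 0.985, 0.998 and, for interferon-induced genes, 0.95, all now below 1, and LMP8 over mi8 of 0.9498 for all members and 1.02, now above 1, for neutrophil-attracting genes. Without depth scaling LMP8 over mi8 was 0.615, 0.659 and 0.539 for all, neutrophil-attracting and interferon-induced members. At a −log10 q of at least 10, HP109 alone held 22.7% of all members and 40% of interferon-induced regions (all regions 27.6%), and LMP8 alone 0% of all members and neutrophil-attracting regions against either HP109 (all regions 2.52%) or mi8 (1.62%). LMP8 alone was also 0% for interferon-induced genes against mi8 at a minimum of 5 (all regions 3.39%), at 10 and with a window of 0 kb; mi8 alone against LMP8 at a minimum of 5 was 5.88% for all members and 0% for neutrophil-attracting ones (all regions 24.6%). In a window of 0 kb, HP109 alone held 0% in every class. The share in mi8 alone, against OE, was 8.45 to 35.0 points higher at interferon-induced than at neutrophil-attracting genes in 8 of 8 alternatives. Between the control lists, the share in mi8 alone, against LMP8, was also higher at interferon-induced genes in 7 of 8 alternatives. That difference ran between -3.95 and 30.5 points. The alternatives reuse largely the same regions and are not independent of each other. The cause of these shifts was not tested; small numbers of regions and shallow summits limit all of them.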
